A study of Mus musculus with 6 samples.

Results

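Phospholipid flippases are membrane pumps of the P4-ATPase family, and 9 of their genes and the gene of their shared subunit, Tmem30a, were examined here in neural crest cells depleted of the ubiquitin ligase NEDD4. The 10 genes (Atp8a1, Atp8a2, Atp8b1, Atp8b2, Atp10a, Atp10b, Atp10d, Atp11a, Atp11b and Tmem30a) were taken by name from a list and are 10 of the 19933 genes with an array probeset of their own. Each had 1 probeset that carried its symbol alone, so no choice between probesets arose. The cells were NCU10K, an immortalized line of mouse neural crest origin, transfected with RNAiMAX and harvested after 48 h. The control siRNA group (3 arrays) received a low GC control siRNA and the Nedd4 siRNA group (3 arrays) a single Nedd4 siRNA, both in DMEM with foetal calf serum and antibiotics. Total RNA (300 ng per sample) was hybridised to Affymetrix mouse gene arrays, 1 array per biological replicate, and the deposited values are log2 expression. The methods take the RNA from a single well and the submitters' design notes from larger plates, which was not reconciled here. With 1 Nedd4 siRNA and no rescue, loss of Nedd4 cannot be told apart from other effects of that siRNA.

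Flippases use ATP to move phospholipids from the outer to the inner leaflet of a membrane, and so keep phosphatidylserine and phosphatidylethanolamine on the cytosolic side. Most of them leave the endoplasmic reticulum only when bound to a CDC50 subunit, chiefly CDC50A, which Tmem30a encodes. Scramblases undo this asymmetry, and phosphatidylserine that reaches the cell surface marks dying cells for engulfment. Flippase activity also bends membranes and takes part in the budding of vesicles from the Golgi and endosomes.

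The genes were chosen on the log2 fold changes of this same comparison, whose results were known when they were listed. Their levels and log2 fold changes are therefore given as a description, with no p, and a count of members is only read beside the share over all probesets. The fit across all 28440 probesets (limma, Benjamini-Hochberg adjustment, threshold 0.05) serves for the counts and for genes outside the list. Levels of different probesets on these arrays are not comparable, so only the same gene is compared between arrays.

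Nedd4 mRNA, the target of the siRNA, stood at 12.24, 12.35 and 12.34 on the log2 scale in control siRNA replicates 1 to 3 and at 10.45, 10.94 and 10.68 in Nedd4 siRNA replicates 1 to 3. The groups did not overlap, and limma gave −1.62 as its log2 fold change (SE 0.12, adjusted p = 3.16e-06). Array medians lay between 6.28 and 6.35. The marker counts that follow are read beside the 16.1% of all probesets that passed limma's threshold in either direction. Of 12 neural crest markers 7 were lower and 2 higher at an adjusted p under 0.05 in limma, and none lay in the dimmest 50% of probesets. Their mean log2 level was 9.51 to 9.61 on the control arrays and 9.22 to 9.36 on the Nedd4 siRNA arrays. Erbb3 had a log2 fold change of −1.14 and Sox10 of −0.43, whereas Sox9 was higher at 0.66. Glial markers (6 measured) had 2 lower, Cnp at −1.58 and Mbp at −0.27, and 1 higher, Fabp7 at 1.20. Their means were 9.42 to 9.53 and 9.27 to 9.36. Smooth muscle and fibroblast markers (11) had 3 higher and 0 lower, with means of 6.46 to 6.55 and 6.66 to 6.74. Neuronal markers (6) had 1 higher and macrophage markers (6) 1 lower, Cd68, and 5 of each of these lists lay in the dimmest 50% of probesets. Their means were 5.58 to 5.80 against 5.66 to 5.75 for neurons and 5.82 to 5.96 against 5.46 to 5.51 for macrophages. The lower macrophage mean came mostly from Cd68, with a log2 fold change of −1.97. The other 5 macrophage markers had log2 fold changes of −0.10 to −0.027 and did not pass. In bulk RNA, fewer cells of a type and less RNA per cell cannot be told apart, and the part of these markers in the flippase values was not tested.

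Of the 10 flippase genes, 4 were lower in Nedd4 siRNA cells at the limma threshold, 0 were higher and 6 did not pass. Over all probesets 7.96% were lower by the same rule, 8.14% were higher and 16.1% passed in either direction. The 4 were Atp10b, Atp11a, Atp10a and Atp11b, and all 3 control arrays exceeded all 3 Nedd4 siRNA arrays for each of them. By the methods' t-test 2 of the 10 passed, Atp10b and Atp10a, beside 7.5% of all probesets. Groups did not overlap for 5 of the 10 genes, the fifth being Atp8a1, all with lower values in Nedd4 siRNA cells, against 14.1% of all probesets that were lower without overlap and 28.3% without overlap in either direction. The members' median log2 fold change was −0.21, and that of all probesets −0.013. All probesets include 5042 with no gene symbol, so they are not a like set. With only the 21780 probesets of 1 gene symbol fitted, 4372 passed in either direction, and 5 of the 10 flippase genes. Because the list was drawn up from this contrast, these shares say nothing further about the family.

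Upstream sequence is shown for the genes whose groups separated past the threshold and that have a start site in the reference table (Atp10a, Atp11a and Atp11b), and for Tmem30a, their subunit gene, which did not pass. Windows of 6 of the 10 genes were used, and none for Atp10b, Atp8a2, Atp8b1 or Atp10d. The search for members' windows skipped a whole chromosome, so a missing window need not mean a missing start site. Each window holds the 250 bases before the RefSeq start site, 5′ to 3′ on the strand of the gene, in GRCm38.p6. They lie at chr7:58657952-58658201 (Atp10a, plus strand), chr8:12756766-12757015 (Atp11a, plus strand), chr3:35753813-35754062 (Atp11b, plus strand) and chr9:79793431-79793680 (Tmem30a, minus strand). Capitals mark each match, on either strand, to 1 of 5 promoter motifs. They are the GC box (GGGCGG), the CCAAT box, the E-box (CACGTG), the TATA box (TATAAA), and the motif of SOX factors (either ACAAAG or its variant ACAATG).
Atp10a: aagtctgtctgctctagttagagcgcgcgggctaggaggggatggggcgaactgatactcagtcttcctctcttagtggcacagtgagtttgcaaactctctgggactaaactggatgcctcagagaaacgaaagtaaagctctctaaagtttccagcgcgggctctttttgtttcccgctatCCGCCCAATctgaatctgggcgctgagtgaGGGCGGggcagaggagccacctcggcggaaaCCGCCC
Atp11a: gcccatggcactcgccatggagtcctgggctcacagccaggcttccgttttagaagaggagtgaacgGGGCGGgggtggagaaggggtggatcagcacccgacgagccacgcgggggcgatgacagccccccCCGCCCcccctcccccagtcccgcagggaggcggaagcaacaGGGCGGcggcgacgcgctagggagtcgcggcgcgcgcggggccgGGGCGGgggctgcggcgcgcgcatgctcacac
Atp11b: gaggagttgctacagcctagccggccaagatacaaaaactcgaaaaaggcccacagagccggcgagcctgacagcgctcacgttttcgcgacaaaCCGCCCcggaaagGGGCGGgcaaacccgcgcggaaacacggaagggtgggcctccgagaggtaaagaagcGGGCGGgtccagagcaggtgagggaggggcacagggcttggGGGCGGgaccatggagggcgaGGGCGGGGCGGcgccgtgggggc
Tmem30a: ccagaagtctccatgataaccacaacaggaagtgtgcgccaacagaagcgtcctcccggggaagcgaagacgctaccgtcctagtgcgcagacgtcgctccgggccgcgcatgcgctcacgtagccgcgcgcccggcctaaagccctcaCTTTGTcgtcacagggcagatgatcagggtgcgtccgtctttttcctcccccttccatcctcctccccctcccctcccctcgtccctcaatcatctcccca

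GC boxes were found in the windows of Atp10a (3), Atp11a (4) and Atp11b (6). They were also found in that of Atp8a1 (4) and in both windows of Atp8b2 (2 and 3), and neither Atp8a1 nor Atp8b2 mRNA passed. The window of Tmem30a held none. Over all 32851 windows of the table, 32.7% held a GC box. In Atp10a one GC box shares bases with a CCAAT match, and in Atp11b the matches nearest to the start overlap. Among the 7 windows used, a SOX motif was found in Tmem30a alone, against 25.2% of all windows. A CCAAT box was found in Atp10a and in 1 window of Atp8b2, against 33.8%. Neither CACGTG (6.02% of all windows) nor TATAAA (12.4%) occurred in any of the 7 windows. CpG dinucleotides numbered 14 in Atp10a, 29 in Atp11a, 24 in Atp11b, 25 in Atp8a1, 19 in each window of Atp8b2 and 22 in Tmem30a. The median over all windows was 6. The GC content of the 7 windows ran from 55.6% (Atp10a) to 74.4% (Atp11a), against a median of 52.4%. The shares of all windows given here were not matched for GC content. The motif matches describe letters in a window and not sites of binding, and genes on both sides of the threshold carried them.

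Atp10b (probeset 10375265) encodes a lysosomal P4-ATPase that transports glucosylceramide and phosphatidylcholine. It stood at 9.74, 9.65 and 9.92 in control siRNA replicates 1 to 3 and at 7.56, 7.79 and 7.62 in Nedd4 siRNA replicates 1 to 3. The groups lay far apart, with a gap between them many times the spread within either. The group means were 9.77 ± 0.14 and 7.66 ± 0.12 (SD, n = 3 each), a log2 fold change of −2.11 (SE 0.10), or 4.33-fold lower. Only 4 of the 28440 probesets had a lower log2 fold change.

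Atp10a (probeset 10553788), which encodes a phosphatidylcholine flippase of the plasma membrane, was at 8.53, 8.69 and 8.55 with control siRNA and at 7.96, 8.12 and 7.98 with Nedd4 siRNA. Replicate 2 was the highest array of both groups, and the groups did not overlap. The log2 fold change was −0.57 (SE 0.091) between means of 8.59 ± 0.087 and 8.02 ± 0.087 (SD, n = 3 each). Its paralogue Atp10d (probeset 10522335), which encodes a glucosylceramide flippase, lay at 6.56, 6.75 and 6.49 against 6.63, 6.92 and 6.70. These values overlapped, and the log2 fold change of Atp10d was 0.15 (SE 0.11, 95% interval −0.079 to 0.38). Of the 3 Atp10 genes, chosen on this same comparison, 2 were lower with Nedd4 siRNA at the limma threshold, beside 7.96% of all probesets. The interval of the third spans 0.

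**Figure D1:**
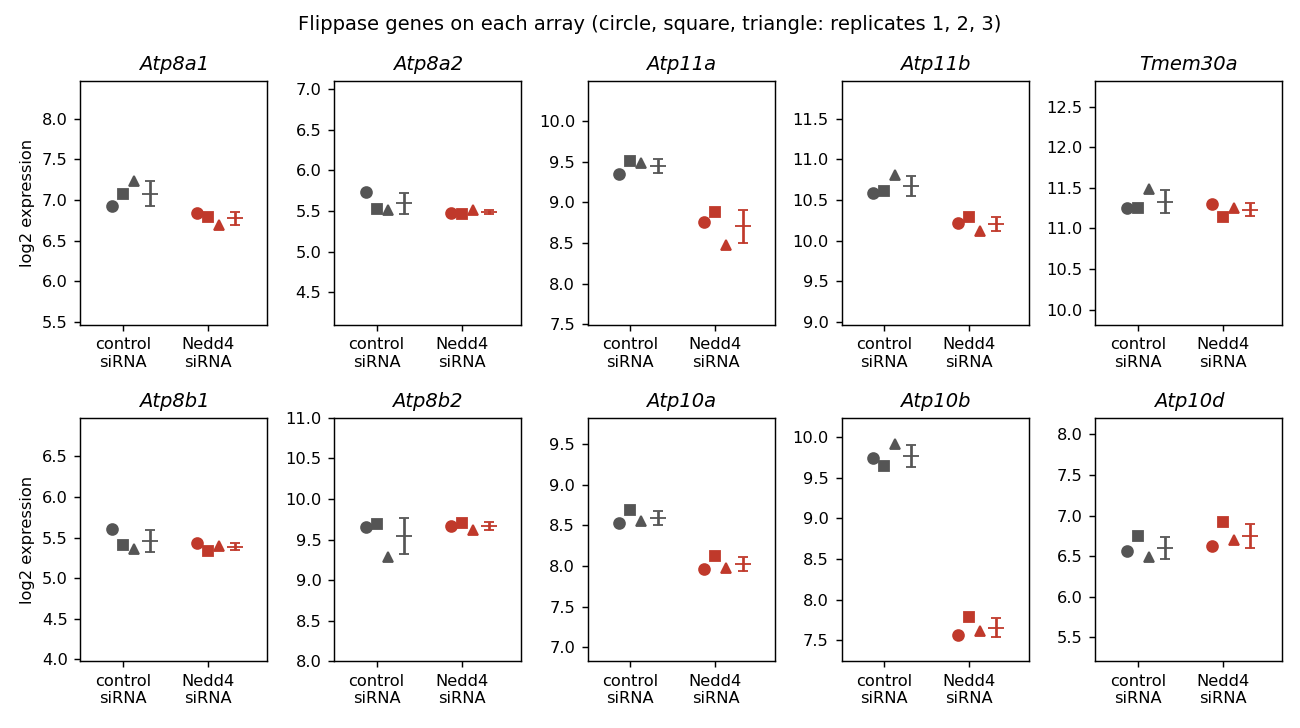
Log2 expression (y axis, each panel spanning 3 log2 units) of the 10 flippase genes in NCU10K cells with control siRNA (grey) or Nedd4 siRNA (red). Points are single arrays and the bars beside them the mean ± SD of 3 arrays. Atp10b separates from 9.65 to 9.92 down to 7.56 to 7.79, Atp10a, Atp11a, Atp11b and Atp8a1 separate by less, and the other 5 genes overlap.

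The flippases of the Atp8a and Atp11 groups carry phosphatidylserine and phosphatidylethanolamine. Atp11a (probeset 10570201) encodes a phosphatidylserine flippase of the plasma membrane. Its values were 9.35, 9.51 and 9.48 with control siRNA and 8.76, 8.88 and 8.48 with Nedd4 siRNA. Nedd4 siRNA replicate 3 was the lowest array, and even the highest Nedd4 siRNA array lay below all controls. Means were 9.45 ± 0.085 and 8.71 ± 0.21 (SD, n = 3 each), with a log2 fold change of −0.74 (SE 0.11), or 1.67-fold lower. Atp11b (probeset 10491486), whose product acts on endosomes, was at 10.59, 10.61 and 10.81 against 10.22, 10.29 and 10.12. The groups again did not overlap, and the log2 fold change was −0.46 (SE 0.095), or 1.38-fold lower. A lower log2 fold change than theirs was seen for 455 probesets in the case of Atp11a and 1380 in that of Atp11b.

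Atp8a1 (probeset 10530319) encodes a phosphatidylserine flippase of the Golgi and endosomes that is abundant in brain. Its control values of 6.93, 7.07 and 7.24 all exceeded the Nedd4 siRNA values of 6.84, 6.79 and 6.69. The gap between the nearest arrays was small, and its log2 fold change of −0.31 (SE 0.099, 95% interval −0.52 to −0.091) did not reach the threshold across all probesets. Without control siRNA replicate 1, the lowest control array, it was −0.38 and passed. Atp8a2 (probeset 10420532), the neuronal counterpart, was at 5.74, 5.53 and 5.51 against 5.48, 5.46 and 5.51. Control siRNA replicate 1 stood above the other 5 arrays, which lay within a narrow band. The log2 fold change of Atp8a2 was −0.11 (SE 0.092, 95% interval −0.31 to 0.090), and its mean was in the dimmest 50% of all probesets.

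Tmem30a (probeset 10595288), the subunit gene, did not pass. Its values were 11.25, 11.25 and 11.49 with control siRNA and 11.30, 11.14 and 11.25 with Nedd4 siRNA. The groups overlapped, and control siRNA replicate 3 alone stood higher than the rest. Means were 11.33 ± 0.14 and 11.23 ± 0.082 (SD, n = 3 each), and the log2 fold change was −0.10 (SE 0.097, 95% interval −0.31 to 0.11). The difference between Tmem30a and the catalytic genes was not tested.

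The Atp8b genes did not pass either. Atp8b2 (probeset 10499666), which encodes a phosphatidylcholine flippase, was at 9.66, 9.69 and 9.29 against 9.67, 9.71 and 9.62. Control siRNA replicate 3 lay below the other 5 arrays, which agreed closely. The log2 fold change was 0.12 (SE 0.11, 95% interval −0.12 to 0.36) and turned to −0.0083 without that array. Atp8b1 (probeset 10459421), the gene mutated in a familial form of intrahepatic cholestasis, was at 5.61, 5.41 and 5.36 against 5.43, 5.34 and 5.39. Its log2 fold change of −0.073 (SE 0.093, 95% interval −0.28 to 0.13) turned to 0.0017 without control siRNA replicate 1. Atp8b1 lay in the dimmest 25% of all probesets, and Atp8a2 and Atp8b1 in the dimmest 50%, so 8 of the 10 genes passed the stricter of these filters on dim probesets.

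Among replicates, no array was uniformly high or low for the flippase genes. The SD of a gene ran from 0.085 to 0.22 over the control arrays and from 0.025 to 0.21 over the Nedd4 siRNA arrays, and was larger in the control group for 7 genes and smaller for 2. Nedd4 siRNA replicate 2 was the highest array of its group for 6 of the 10 genes, and Nedd4 siRNA replicate 3 for 1. Leaving out each array in turn kept the log2 fold change of Atp10b between −2.18 and −2.04, that of Atp11a between −0.83 and −0.63, that of Atp10a between −0.62 and −0.52, and that of Atp11b between −0.50 and −0.39. These 4 genes passed the threshold in all 6 of these fits, in which 2962 to 4312 of all 28440 probesets passed. The fits share most of their arrays with the comparison the genes were chosen on, so this is no independent support. Atp8a1 ran from −0.38 to −0.23 and passed in 1.

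**Figure D2:**
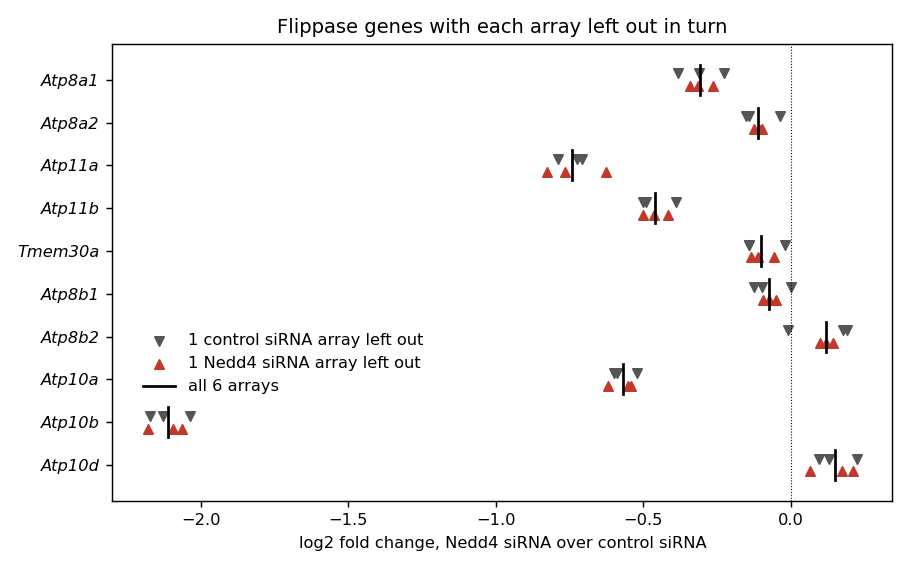
Log2 fold change of each flippase gene, Nedd4 siRNA over control siRNA (x axis), with all 6 arrays (black line) and with 1 array left out (grey, a control siRNA array; red, a Nedd4 siRNA array). Atp10b stays between −2.18 and −2.04 and Atp11a between −0.83 and −0.63, while Atp8b1 and Atp8b2 cross 0.

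The log2 profile of Atp10b over the 6 arrays, centred on its own mean, was nearest to those of Hhla1, Tecrl and Hsd11b1 among 19932 other genes. The Euclidean distances in log2 units were 0.16, 0.21 and 0.31, where the median gene lay at 2.60. Hhla1 was at 9.20, 9.14 and 9.34 with control siRNA and at 6.90, 7.17 and 7.16 with Nedd4 siRNA. All 3 neighbours share the large step between the groups, which sets the distance. The nearest profiles to that of Tmem30a were those of Defb15, Krt40 and Tcl1b4 at 0.069, 0.072 and 0.073, with a median of 0.40, which reflects small differences among arrays rather than a step.

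Other genes of the family (Atp8b3, Atp8b4, Atp8b5, Atp9a, Atp9b, Tmem30b and Tmem30c) had 1 of 7 measured genes lower and 0 higher, with a median log2 fold change of −0.010. That is 14.3%, beside 16.1% of all probesets in either direction. Atp9b, which encodes a Golgi P4-ATPase that needs no CDC50 subunit, was at 8.12, 8.31 and 8.16 with control siRNA and at 7.65, 7.83 and 7.67 with Nedd4 siRNA. Its groups did not overlap, and it fell by 0.48 on the log2 scale (SE 0.094, adjusted p = 0.00333, limma). By the methods' t-test it did not pass (adjusted p = 0.0521). The nearest to the threshold among the others was Tmem30b, a second CDC50 gene, at 0.19 (SE 0.091, adjusted p = 0.208, limma). Atp9a had a log2 fold change of −0.087, and those of Atp8b3, Atp8b4, Atp8b5 and Tmem30c lay between −0.013 and 0.0033. Of the 7 genes, 6 were in the dimmest 50% of probesets, Atp9b being the exception.

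**Figure D3:**
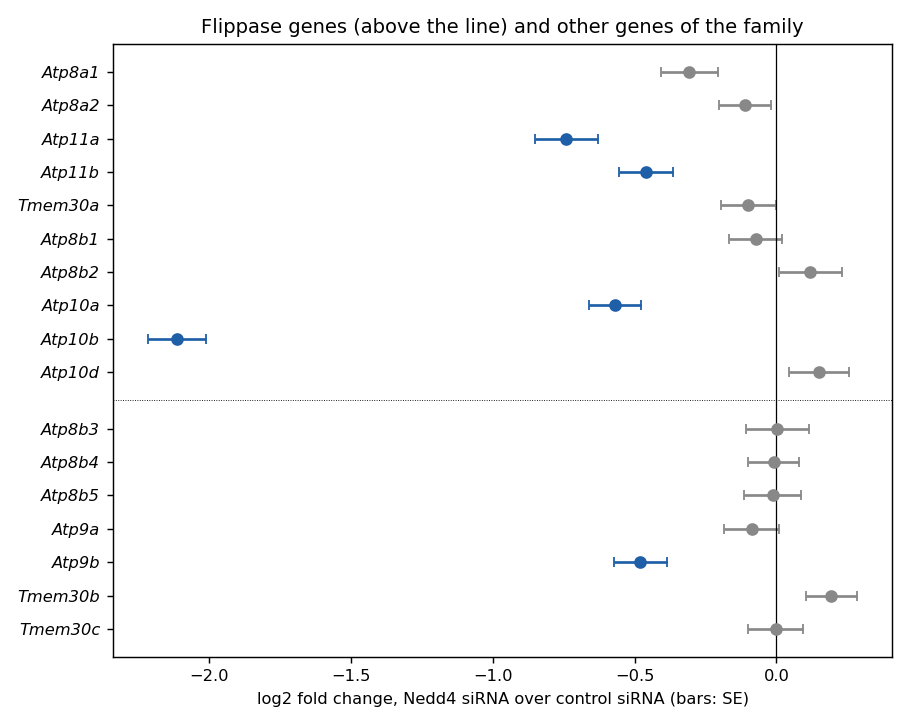
Log2 fold change, Nedd4 siRNA over control siRNA (x axis), of the 10 flippase genes above the dotted line and the 7 other measured family genes below it. Points are the limma estimates, with 3 arrays in each group, bars are SE, and colours are blue for genes lower at an adjusted p under 0.05 and grey for the rest. Atp10b at −2.11 lies far left of Atp11a at −0.74, and Atp9b at −0.48 is the only blue point below the line.

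Other genes that move, make or bind the same lipids, partners of flippases, and P-type ATPases of other classes were examined as 8 lists. Of 104 measured genes outside the flippase list, 25 passed limma's test, 9 higher and 16 lower, or 24.0%, beside 16.1% of all probesets. That base is not a like set, since all probesets include 5042 with no gene symbol. With only the 21780 probesets of 1 gene symbol fitted, 4372 of them passed, and 26 of the 104 list genes. By the methods' t-test 7 of the 104 passed, or 6.73%, beside 7.5% of all probesets. Without the list of other P-type ATPases, 23 of 86 passed limma's test, 9 higher and 14 lower, and 7 passed the methods' t-test, or 8.14%. Of the 25, 16 passed with each array left out in turn, and the 7 that passed by the methods' t-test were Abca1, Abca2, Chpt1, Pcyt1b, B4galt6, Arfgef1 and Gas6. The largest number lost by leaving out a single array was 8, with Nedd4 siRNA replicate 1. No test of a list against other genes was run. The lists were chosen with earlier results of these data known, so their shares are given as a description only.

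Scramblases move lipids both ways across a membrane and so oppose flippases. Of 24 measured genes on this list, 1 was higher and 2 lower, with a median log2 fold change of −0.095. That is 12.5%, beside 16.1% of all probesets. The list includes Bsg and Nptn, which encode partners of scramblases rather than scramblases. Xkr8, a caspase-activated scramblase that exposes phosphatidylserine, fell from 6.95 ± 0.18 to 6.42 ± 0.19 (SD, n = 3 each), a log2 difference of −0.54 (SE 0.12, adjusted p = 0.00712, limma). Vmp1, a scramblase of the endoplasmic reticulum that acts in autophagy, rose by 0.45 (SE 0.095, adjusted p = 0.00539, limma). Atg9a, which scrambles lipids of the growing autophagosome, fell by 0.32 (SE 0.094, adjusted p = 0.0372, limma), but did not pass when any of 4 arrays was left out (control siRNA replicates 2 and 3, Nedd4 siRNA replicates 1 and 3).

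ABC transporters export lipids to the outer leaflet or to acceptors outside the cell. Of 11 measured, 3 were higher and 1 lower, or 36.4%, beside 16.1% of all probesets, with a median of 0.057. Abca1, which loads cholesterol and phospholipid onto apolipoprotein, stood at 5.84, 5.82 and 5.89 with control siRNA and at 6.75, 6.59 and 6.64 with Nedd4 siRNA. The groups were well apart, and Abca1 rose by 0.81 (SE 0.086, adjusted p = 4.93e-05, limma). The multidrug transporter genes Abcb1b (0.64, adjusted p = 0.00436, limma) and Abcc1 (0.51, adjusted p = 0.00271, limma) rose as well. Abca2, a transporter of late endosomes and lysosomes, fell (−0.58, SE 0.095, adjusted p = 0.001, limma).

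Genes for the synthesis of phosphatidylserine, phosphatidylethanolamine and phosphatidylcholine, the main cargo of flippases, had 4 of 12 lower and 0 higher, with a median of −0.14. That is 33.3%, beside 7.96% of all probesets lower and 16.1% in either direction. By the methods' t-test 2 of the 12 passed, beside 7.5% of all probesets. Chpt1, which completes phosphatidylcholine, stood at 10.04, 10.01 and 9.96 against 9.13, 9.21 and 9.15. Its replicates agreed closely in both groups, and it fell by 0.84 (SE 0.083, adjusted p = 2.96e-05, limma). Pcyt1b, an isoform of the enzyme that controls the rate of phosphatidylcholine synthesis, fell by 0.69 (SE 0.10, adjusted p = 0.000443, limma). Both phosphatidylserine synthase genes were lower, Ptdss1 at −0.61 (SE 0.11, adjusted p = 0.00214, limma) and Ptdss2 at −0.38 (SE 0.10, adjusted p = 0.0197, limma). The call of Ptdss2 was lost without control siRNA replicate 2, Nedd4 siRNA replicate 1 or Nedd4 siRNA replicate 3.

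Glucosylceramide, a cargo of flippases such as those of Atp10b and Atp10d, is turned into lactosylceramide or broken down by glucosylceramidases. Of 8 measured genes of its metabolism 2 were higher and 3 lower, or 62.5%, beside 16.1% of all probesets, with a median of −0.062. The lactosylceramide synthase genes B4galt6 (−0.77, SE 0.090, adjusted p = 0.000101, limma) and B4galt5 (−0.42, SE 0.099, adjusted p = 0.0102, limma) both fell. B4galt6 lay at 8.99, 9.19 and 9.06 in control cells and at 8.35, 8.35 and 8.24 in Nedd4 siRNA cells, with no overlap. Scarb2, the receptor that brings glucocerebrosidase to lysosomes, rose by 0.46 (SE 0.11, adjusted p = 0.0146, limma). Gba2, a glucosylceramidase outside lysosomes, rose by 0.28 (SE 0.088, adjusted p = 0.046, limma), but its call was lost whichever array was left out. Gltp, a glycolipid transfer protein gene named here after its values were seen, fell by 0.32 (adjusted p = 0.0497, limma), and did not pass in 4 of the 6 fits with an array left out, those without control siRNA replicate 2 or 3 or Nedd4 siRNA replicate 1 or 3. The call of B4galt5 was lost without Nedd4 siRNA replicate 1.

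**Figure D4:**
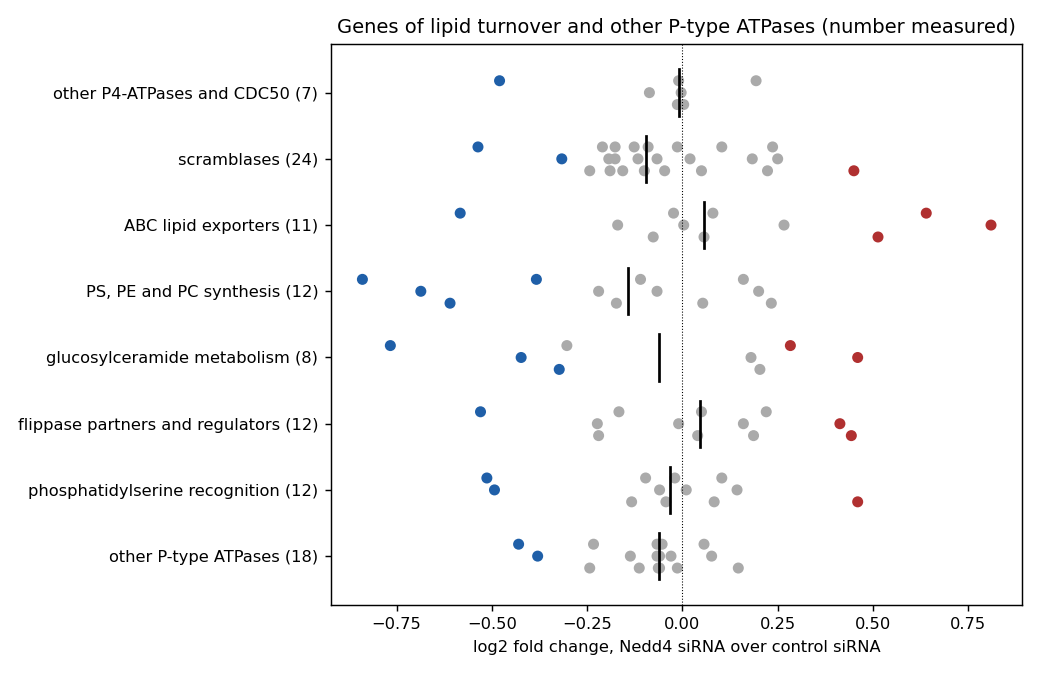
Log2 fold change, Nedd4 siRNA over control siRNA (x axis), of 104 genes in 8 lists, 7 of lipid transport, turnover and recognition and 1 of other P-type ATPases (PS, PE and PC stand for phosphatidylserine, phosphatidylethanolamine and phosphatidylcholine). Genes past an adjusted p of 0.05 in limma are red if higher and blue if lower, the others are grey, and black lines mark list medians. The points run from −0.84 for Chpt1 to 0.81 for Abca1, and those past the threshold in the synthesis list are all blue.

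Partners and regulators of flippases had 2 of 12 measured genes higher and 1 lower, with a median of 0.045. That is 25%, beside 16.1% of all probesets. Arfgef1, an activator of ARF GTPases at the Golgi, fell by 0.53 (SE 0.094, adjusted p = 0.00183, limma). Snx3, a sorting nexin of retromer traffic, rose by 0.41 (SE 0.10, adjusted p = 0.0127, limma), as did the protein kinase C gene Prkca, by 0.44 (SE 0.12, adjusted p = 0.0191, limma). Both of these calls were lost without Nedd4 siRNA replicate 1, and that of Prkca also without control siRNA replicate 3.

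Among 12 genes for recognition of phosphatidylserine by engulfing cells, 1 was higher and 2 lower, with a median of −0.032. That is 25%, beside 16.1% of all probesets. The bridging ligand Pros1 fell from 9.27 ± 0.11 to 8.78 ± 0.11 (−0.49, SE 0.096, adjusted p = 0.00319, limma) and the receptor Tyro3 from 6.94 ± 0.19 to 6.43 ± 0.076 (−0.51, SE 0.10, adjusted p = 0.00448, limma). The related ligand Gas6 went the other way, from 5.74 ± 0.096 to 6.20 ± 0.060 (0.46, SE 0.089, adjusted p = 0.00329, limma). These means are over 3 arrays each, with their SD.

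P-type ATPases of other classes pump ions, metals or polyamines. Of their 18 measured genes 0 were higher and 2 lower, a share of 11.1% beside 16.1% of all probesets, with a median of −0.062. They were the copper pump gene Atp7a (−0.38, SE 0.090, adjusted p = 0.0113, limma) and the lysosomal polyamine exporter gene Atp13a2 (−0.43, SE 0.11, adjusted p = 0.0145, limma). Atp7a was at 9.02, 9.02 and 9.13 with control siRNA and at 8.75, 8.56 and 8.72 with Nedd4 siRNA. Its call was lost without Nedd4 siRNA replicate 2, and that of Atp13a2 without control siRNA replicate 2 or Nedd4 siRNA replicate 1.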

How the data were processed

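The authors processed scans of Affymetrix Gene 1.0 ST mouse arrays with Partek software (6.5 per the processing notes of the submitters), which corrected background by RMA and GC content and summarized probes by their mean, and deposited log2 values of 28440 probesets to 2 decimals. No further normalization was applied, and precision is limited by the number of arrays. Genes were named from probesets with 1 gene symbol (21780; 1618 carry several and 5042 none), by the highest mean where a gene had several. The 6 arrays were fitted with limma 3.58.1 under R 4.3.3 (lmFit, eBayes, no covariate, Benjamini-Hochberg over all probesets), which was tested on simulated data. Python 3.11.15 with NumPy 2.4.6, pandas 2.3.3, SciPy 1.17.1 and Matplotlib 3.10.9 was used for the rest. The members, lists, motifs and tests were chosen with earlier results of these data known. The lists are 7 of lipid transport and turnover, 1 of other P-type ATPases and 5 of cell type markers. Named genes are all members, 7 other genes of the family, per list up to 4 genes that passed, taken by smallest p, and the 3 nearest profiles to Atp10b and Tmem30a. Gltp and the cell type markers given with values were named outside this rule. Alternatives were the methods' t-test (their analysis of variance, with the siRNA as its 1 factor), other eBayes settings, array weights, a replicate block, quantile normalization, median centring, filters on the dimmest 25% and 50%, probesets with 1 symbol, a threshold of 0.01, a minimum log2 fold change of 1, the mean of a gene's probesets, and leaving out each array. Promoter windows came from RefSeq (GRCm38.p6), and protein sequences were not analysed here. The array annotation names no genome build, so no gene coordinates are given.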

Additional observations from a re-analysis of the deposited data

How the results depend on the processing

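The 4 flippase genes past the threshold kept their direction under every alternative run. By the methods' t-test 2 of them passed (Atp10b and Atp10a), and with a log2 fold change of at least 1 required, 1 did (Atp10b). The 25 changed genes of the 8 lists became 7 by the methods' t-test, 15 at an adjusted p under 0.01 and 0 with a log2 fold change of at least 1. Over all probesets 4579 passed, against 2134 by the methods' t-test, 2881 at an adjusted p under 0.01 and 299 with a log2 fold change of at least 1. Leaving out each array in turn gave 2962 (without Nedd4 siRNA replicate 1) to 4312 probesets, 4 to 5 flippase genes and 17 to 25 genes of the 8 lists, and a Nedd4 log2 fold change of −1.75 to −1.5. Whether replicate numbers pair the samples could not be settled from these values. Deviations of same-numbered arrays from their group means correlated across probesets at −0.012, 0.47 and −0.013 for replicates 1, 2 and 3. The value for replicate 2 was the highest of any pair, but not every array correlated best with its own number. Deviations within a group depend on each other, so these correlations are not independent. With the replicate block, 4962 probesets, 4 flippase genes and 25 genes of the 8 lists passed. Alternatives that raised the number of flippase genes to 5 added Atp8a1. No alternative that was run reversed a call. The mean of a gene's probesets did not apply to the flippase genes, which had 1 each. With 3 arrays per group and an SE of 0.091 to 0.11 for a flippase gene, the 95% intervals of the 6 genes that did not pass reach −0.52 (Atp8a1) and 0.38 (Atp10d).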
